A study of Triticum aestivum with 13 samples.

Results

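A group of 81 probe sets was bright in leaves of the wheat line TugelaDn5 and dimmer in every repeat of the related lines TugelaDn1, TugelaDn2 and Tugela. They were 81 of the 61179 probe sets measured, or 0.132%. A probe set is the group of short probes that reads 1 transcript on an Affymetrix wheat GeneChip array, and its signal is given here as log2 of the deposited intensity, with intensities under 16 set to 16, so that the lowest possible value is 4. A probe set was taken as a member when its lowest TugelaDn5 repeat lay at least 1 log2 unit (2-fold) above the highest of the 9 repeats of the other 3 lines and its TugelaDn5 mean was 8 or more. The gap between these repeats, the TugelaDn5 levels and the levels elsewhere therefore describe the choice and carry no test.

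The RNA was leaf RNA of 4 near-isogenic lines of bread wheat. TugelaDn5 is labelled as resistant with antibiosis and antixenosis, TugelaDn1 as resistant with antibiosis, TugelaDn2 as resistant with tolerance, and Tugela, whose genotype is given as Dn0, as susceptible. All plants of all 4 lines had been infested at the 3-leaf stage with 10 Russian wheat aphids (Diuraphis noxia) each for 48 h, and the leaves above the first leaf were harvested. Each line had 3 biological repeats. A further TugelaDn5 array is titled repeat 3_2 and has the source name of repeat 3. It was read here as a second hybridisation of that repeat, which its title does not state outright. Both arrays were averaged, so that 13 arrays gave 12 repeats. The labels do not say whether plants were pooled within a repeat, and no uninfested plants were analysed here, so that constant differences between lines and differences in the response to the aphid cannot be told apart.

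Russian wheat aphid feeds on phloem sap, and susceptible plants develop streaked, rolled leaves. The Dn genes are wheat resistance loci named after the aphid. Antibiosis means that the plant harms the aphid's growth or reproduction, antixenosis that aphids prefer not to settle on it, and tolerance that the plant withstands feeding. A near-isogenic line is bred by repeated crossing to the recurrent parent, here Tugela, and keeps donor chromatin around the selected gene. An array signal depends both on the amount of a transcript and on how well its sequence matches the probes, and bread wheat carries related copies of most genes on its A, B and D subgenomes. In whole leaves, fewer cells of a type and less RNA per cell cannot be told apart either.

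The arrays were alike in scale: the median intensity ranged from 82.3 to 97.8 and the share of values under 16 from 19.3% to 21.4%. Leaf was the labelled tissue. Of 34 probe sets for photosynthesis genes, 19 lay above the array median, a share that does not mark the tissue by itself. Most of the 34 were probe sets for rbcl. The others all lay above the array median. Their medians were 16.22 for PsbO, 15.23 and 13.58 for PsbP, 14.38 for PRK, and 11.32 and 6.77 for FBP. Probe sets for rbcl, the large subunit of Rubisco, ranged widely. Ta.24976.1.S1_x_at had a median of 16.69, whereas Ta.14567.2.S1_at had a median at the floor of 4. Both probe sets of avnla, an avenin-like storage protein gene of the grain, lay below the array median, and 6 of 7 tubulin probe sets lay above it. None of these lists held a member, which was fixed in advance, because they were drawn from probe sets paired with a gene and no member was paired. TugelaDn2 repeat 3 stood apart in the members and in probe sets near them, as described below. The same rule found 12 probe sets bright in TugelaDn2 only, 0 in TugelaDn1 only and 0 in Tugela only. In the opposite direction, 231 probe sets were dark in TugelaDn5 only, that is, at least 1 below all 9 other repeats with a mean of the other lines of 8 or more. The members were thus the smaller side of the TugelaDn5 pattern in this margin.

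No member could be given a gene name. The annotation used here paired 1273 of the tested probe sets with a gene, and 0 of the 81 members were among them. Of the paired probe sets, 699 had a TugelaDn5 mean of 8 or more, and the largest gap among them was 0.90, below the margin. Defence genes were covered by 10 paired probe sets of 7 genes, including the pathogenesis-related protein PR5, thionins, which are small antimicrobial peptides, and a lipid transfer protein. Of these 0 were members, with gaps up to 0.15. This count was fixed once no paired probe set was a member, and only 0.132% of all probe sets were members. It therefore does not show whether the members include defence genes. Members are therefore named by their probe set identifiers, in which Ta or TaAffx and the number that follows give the cluster of transcript sequences from which the probes were designed.

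The gap had a median of 1.62 (3.06-fold) over the 81 members and ranged from 1.00 to 6.77 (2.00-fold to 109-fold). It was 2 or more in 31 members, 3 or more in 19 and 4 or more in 7. TugelaDn5 means lay between 8.03 and 14.50 with a median of 9.53, against 4.18 to 10.93 with a median of 6.29 for the mean of the other 3 lines. By brightness in TugelaDn5, 11 members had a mean of 12 or more, 22 a mean of 10 to 12 and 48 a mean of 8 to 10. The difference between the TugelaDn5 mean and the mean of the others ranged from 1.26 to 8.50, with a median of 3.03.

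**Figure D1:**
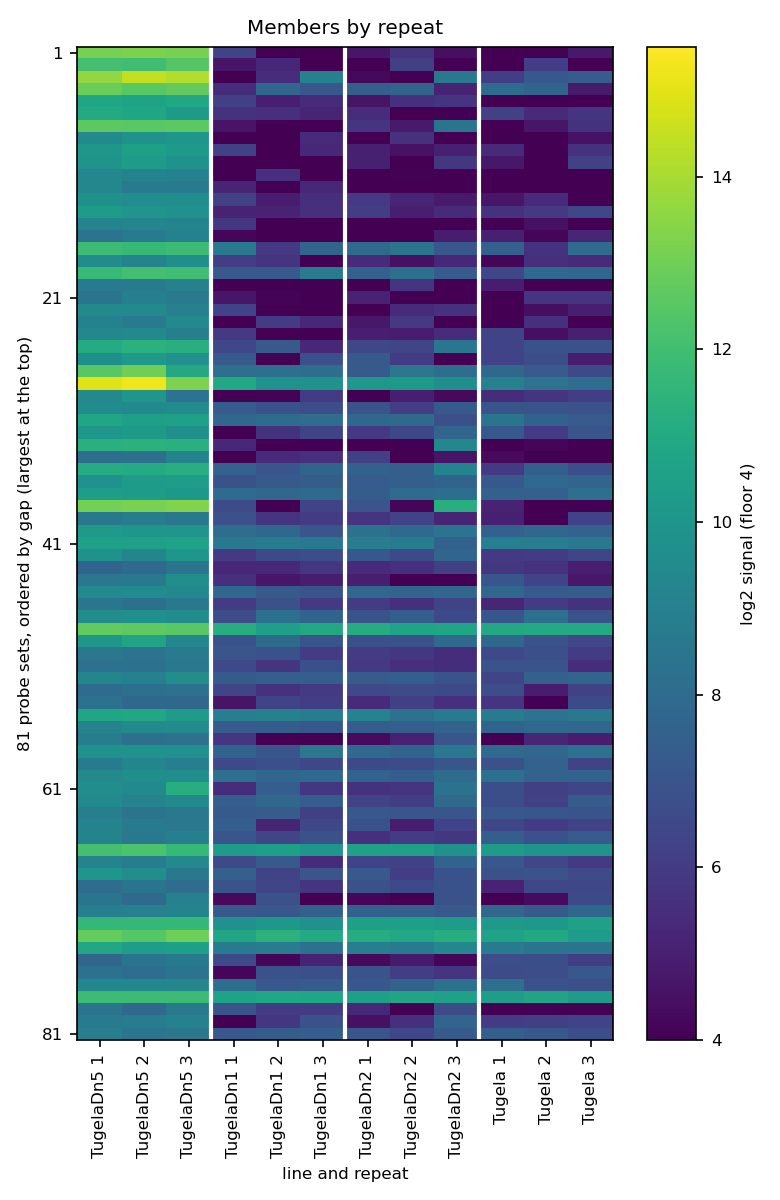
Log2 signal (colour, floor 4) of the 81 members in rows, ordered by gap with the largest at the top, in the 12 repeats in columns, with TugelaDn5 at the left. The 3 TugelaDn5 columns are brighter in every row by the rule that chose the rows, with gaps from 1.00 to 6.77, and single bright cells appear elsewhere, several of them in TugelaDn2 repeat 3.

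The members held a group that was dark outside TugelaDn5 and a larger group that was not. In 21 members (25.9%) all 9 other repeats lay below 6.36, the lowest array median, while the TugelaDn5 means of these 21 reached from 8.03 to 13.17. Their gap had a median of 3.30, against 1.34 in the other 60 members. At least 1 of the other repeats was at the floor in 33 members, 5 or more of the 9 were at the floor in 8, and in 0 members were all 9 at the floor. At the other end, 9 members had a mean of 8 or more in the other lines as well, and 5 of these a mean of 10 or more. TaAffx.106548.1.S1_at was of this last kind, with 12.72, 12.64 and 12.55 in TugelaDn5 and 10.49 to 11.18 in the other lines. Ta.1968.1.S1_at, with 12.77, 12.45 and 12.97 in TugelaDn5, lay at 10.35 to 11.39 elsewhere. These 2 were chosen after their values were seen, to show members with high signal in every line.

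**Figure D2:**
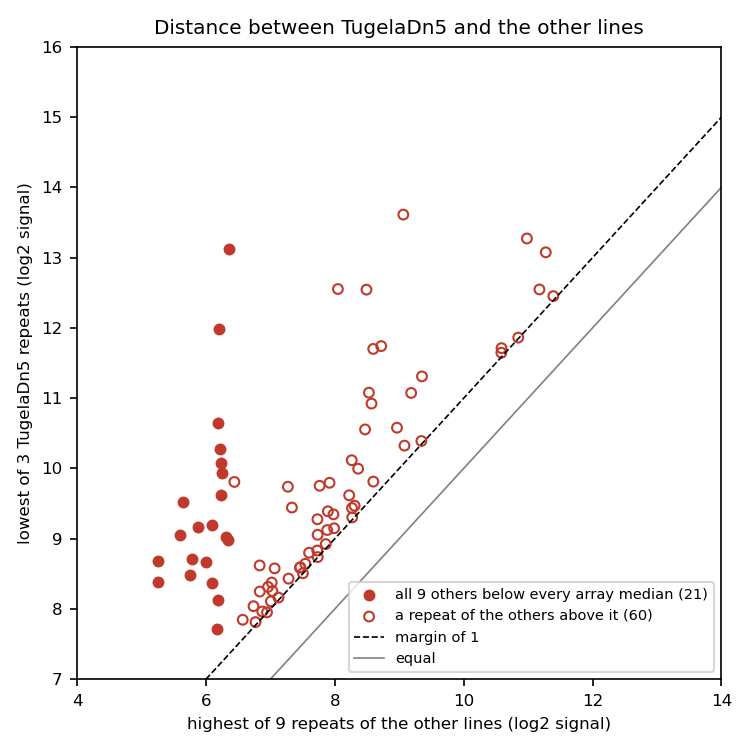
Lowest of the 3 TugelaDn5 repeats against the highest of the 9 repeats of the other lines, both in log2 signal, for the 81 members, with the margin of 1 dashed and equality as a solid line. Filled points are the 21 members whose 9 other repeats all lay below every array median, and open points the other 60, most of which lie close to the margin.

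Ta.24954.1.S1_at had the largest gap, 6.77 or 109-fold. Its signal was 13.16, 13.24 and 13.13 in TugelaDn5, against 6.36, 4 and 4 in TugelaDn1, 4.70, 5.74 and 4.49 in TugelaDn2 and 4, 4 and 4.76 in Tugela. The TugelaDn5 repeats differed by little, while 4 of the 9 other repeats were at the floor. TaAffx.97454.1.A1_at followed with a gap of 5.79 (55.3-fold), from 12.07, 11.99 and 12.44 in TugelaDn5, against 4.63, 5.34 and 4 in TugelaDn1, 4, 6.20 and 4 in TugelaDn2 and 4, 6.11 and 4 in Tugela. It was at the floor in 5 of the 9 other repeats, with at least 1 in each line.

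Ta.26907.1.S1_at was brighter than either in TugelaDn5 and more uneven elsewhere. It read 13.61, 14.47 and 14.17 in TugelaDn5, against 4, 5.44 and 9.06 in TugelaDn1, 4.24, 4 and 8.65 in TugelaDn2 and 6.11, 7.18 and 7.32 in Tugela, a gap of 4.55 (23.4-fold). Repeat 3 was the high one in both TugelaDn1 and TugelaDn2, whereas the Tugela repeats lay closer together. TaAffx.32247.1.S1_at, with a gap of 4.51, was likewise uneven, at 12.91, 12.55 and 12.75 in TugelaDn5, against 5.51, 7.87 and 7.12 in TugelaDn1, 7.48, 7.67 and 5.08 in TugelaDn2 and 8.05, 7.69 and 4.83 in Tugela. In none of the 3 other lines did its repeats hold together.

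TaAffx.13386.1.A1_at differed in that Tugela was the darkest line. It had 10.80, 10.65 and 10.91 in TugelaDn5, against 6.19, 4.98 and 5.35 in TugelaDn1, 4.60, 5.58 and 5.76 in TugelaDn2 and 4 in all 3 Tugela repeats. Every repeat of every resistant line was thus above every repeat of Tugela. Ta.23191.1.S1_at, at 11.05, 10.79 and 10.28 in TugelaDn5, ran from 4 to 6.22 in the other lines, and Tugela, at 6.22, 5.43 and 5.75, was not the darkest line there. Both had gaps of over 4.

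**Figure D3:**
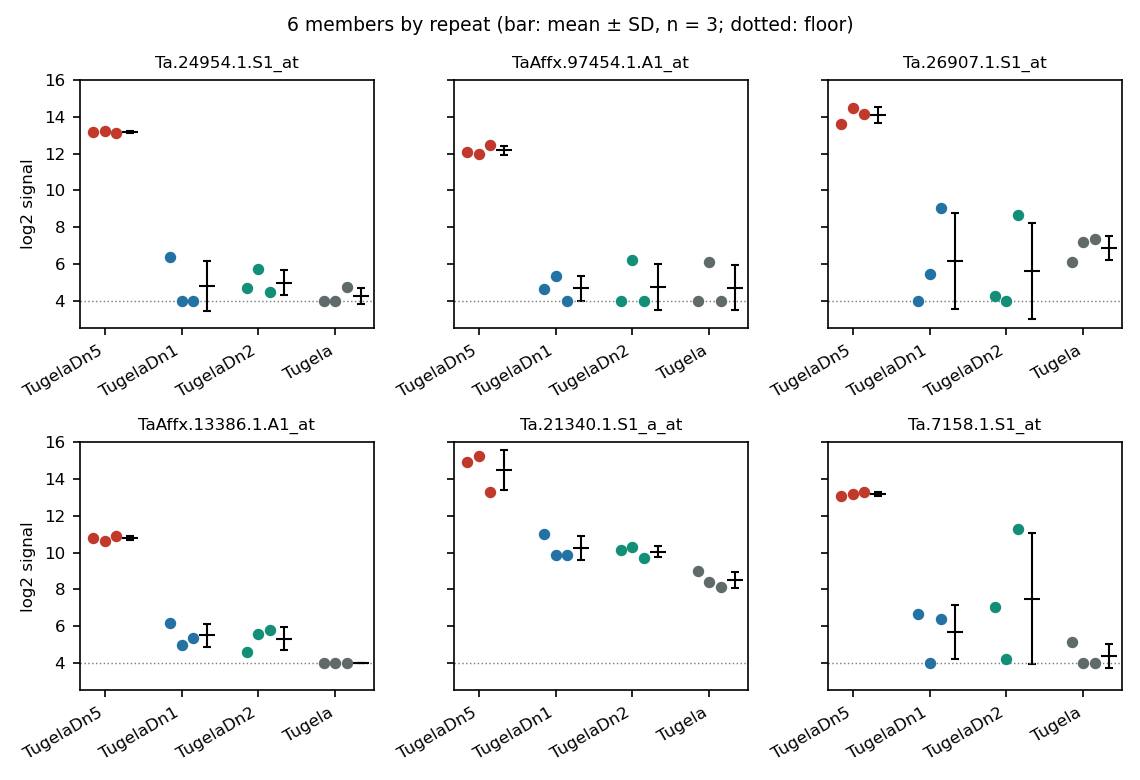
Log2 signal of 6 members by line, with a point for each repeat, a bar for the mean ± SD (n = 3) and a dotted line at the floor of 4. Ta.24954.1.S1_at and TaAffx.97454.1.A1_at lie near the floor outside TugelaDn5, Ta.21340.1.S1_a_at has intermediate levels in TugelaDn1 and TugelaDn2, and TugelaDn2 repeat 3 of Ta.7158.1.S1_at stands at 11.27.

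Of the next 9 members by gap, Ta.6210.1.S1_at is described with TugelaDn2 repeat 3 below and the pair of TaAffx.128836 in the next paragraph. The other 6 had TugelaDn5 means of 8.91 to 10.26 and no repeat above 6.24 in the other lines. Ta.8726.1.S1_at read 9.31, 9.19 and 9.06 in TugelaDn5, against 4, 5.60 and 4 in TugelaDn1, 4, 4.05 and 4 in TugelaDn2 and 4 in every Tugela repeat. TaAffx.50254.2.A1_at read 9.17, 9.29 and 9.18 in TugelaDn5, against 5.87, 4 and 4 in TugelaDn1, 4 in every TugelaDn2 repeat and 4, 4.50 and 4 in Tugela. TaAffx.4964.1.S1_at, at 9.31, 8.68 and 8.75 in TugelaDn5, was above the floor in only 2 other repeats, TugelaDn1 repeat 1 at 5.19 and repeat 3 at 5.26. These 3 members were each at the floor in 7 of the 9 other repeats. TaAffx.114088.1.S1_at was at the floor in 6 of the 9, with TugelaDn5 at 9.52, 9.88 and 10.02. TaAffx.120564.1.A1_at, at 10.08, 10.54 and 10.17 in TugelaDn5, and Ta.15947.1.S1_at, at 9.78, 9.62 and 9.65, reached up to 6.23 and 6.24 in the other lines, in both cases in TugelaDn1 repeat 1.

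TaAffx.128836 was a cluster with 2 probe sets, and both were members. TaAffx.128836.1.S1_at had 9.94, 10.31 and 9.93 in TugelaDn5, against 4 in all TugelaDn1 repeats, 5.01, 4 and 5.84 in TugelaDn2 and 4.74, 4 and 6.25 in Tugela. TaAffx.128836.1.S1_x_at had 10.33, 10.00 and 9.81 in TugelaDn5, against 5.10, 5.14 and 5.54 in TugelaDn1, 6.07, 4.95 and 5.43 in TugelaDn2 and 5.62, 5.89 and 6.44 in Tugela. Identifiers that end in _x_at, _a_at or _s_at mark probe sets whose probes can also match other transcripts, so that the 2 readings of this cluster are not independent.

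Ta.21340 was the other cluster with 2 members, and it held the member with the highest TugelaDn5 mean. Ta.21340.1.S1_a_at read 14.95, 15.26 and 13.27 in TugelaDn5 (14.50 ± 1.07, SD, n = 3), against 10.98, 9.88 and 9.89 in TugelaDn1, 10.12, 10.29 and 9.71 in TugelaDn2 and 9.01, 8.38 and 8.12 in Tugela. Ta.21340.1.S1_at read 12.51, 13.00 and 10.92 in TugelaDn5, against 8.21, 8.23 and 8.13 in TugelaDn1, 7.26, 8.57 and 8.15 in TugelaDn2 and 7.90, 7.28 and 6.60 in Tugela. Within TugelaDn5 both were lowest in repeat 3, which minus the mean of repeats 1 and 2 gave -1.83 for Ta.21340.1.S1_a_at and -1.84 for Ta.21340.1.S1_at. The lower value was seen in both arrays of that repeat, at 13.33 and 13.21 for Ta.21340.1.S1_a_at. In Ta.21340.1.S1_a_at the repeats of TugelaDn1 and of TugelaDn2 all lay above those of Tugela. The third probe set of the cluster, Ta.21340.2.S1_at, was dim, at 7.64, 8.47 and 5.67 in TugelaDn5 and 4 to 7.01 in the other lines, and its difference of 1.81 (SE 0.674) was not called (limma, adjusted p = 0.257).

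TugelaDn5 repeats held together in most members. The SD over the 3 repeats had a median of 0.235 over the 81 members, against 0.178 over the 18741 probe sets with a TugelaDn5 mean of 8 or more. The arrays of repeat 3 differed by a median of 0.109 in the members (largest 0.559) and by a median of 0.0890 over those 18741 probe sets. In the other lines the median SD over members was larger, at 0.583 in TugelaDn1, 0.561 in TugelaDn2 and 0.421 in Tugela, where many values lay near the floor. The rule itself selects against a wide spread in TugelaDn5, so these values are a description.

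An SD above 0.5 in TugelaDn5 was found in 9 members, and in all 9 repeat 3 was either the highest or the lowest of the 3. How often this held in other bright probe sets was not counted, so it describes the 9 only. Repeat 3 minus the mean of repeats 1 and 2 was negative in 5 members, the pair of Ta.21340, Ta.25945.1.S1_at (-1.33), TaAffx.42397.1.S1_at (-1.23) and Ta.5557.1.S1_x_at (-1.06). It was positive in 4 members, TaAffx.56641.1.A1_at (1.61), TaAffx.58880.1.S1_at (1.11), Ta.5479.2.A1_at (0.97) and TaAffx.42385.1.S1_at (0.80). These 9 were picked by their spread after the values were seen. TaAffx.56641.1.A1_at read 9.64, 9.47 and 11.17 in TugelaDn5, with the repeat 3 arrays at 11.19 and 11.15, so that the difference lay between repeats and not between those arrays. Without TugelaDn5 repeat 3, 101 probe sets met the rule, of which 80 were among the 81.

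At the margin, TaAffx.28669.1.A1_at, Ta.12858.1.S1_at and Ta.4746.1.A1_at were the 3 members just inside, each with a gap of 1.00. TaAffx.28669.1.A1_at had 8.41, 7.95 and 8.63 in TugelaDn5, against 6.95, 6.03 and 6.04 in TugelaDn1, 5.32, 4 and 6.64 in TugelaDn2 and 4 in all Tugela repeats. Ta.12858.1.S1_at had 8.74, 8.83 and 9.06 in TugelaDn5 and between 4 and 7.73 elsewhere, the highest in TugelaDn2 repeat 3. Just outside were TaAffx.80149.1.S1_x_at (0.97), Ta.12450.1.A1_at (0.96) and Ta.24564.1.S1_a_at (0.96). TaAffx.80149.1.S1_x_at, with 10.76, 10.95 and 10.92 in TugelaDn5, was kept out by TugelaDn2 repeat 3 at 9.79, since the other 8 repeats lay between 6.27 and 7.90. A further 29 probe sets passed the margin with a TugelaDn5 mean under 8, the highest at 7.99.

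The rule did not compare the other 3 lines with each other, but it held all 9 of their repeats at least 1 below TugelaDn5. A probe set with a high signal in another line was thereby left out, which limits how far members can differ among these lines. Their differences are therefore given as a description. They were computed with limma over all 61179 probe sets, where a probe set was called at a Benjamini-Hochberg adjusted p under 0.05. Of the 81 members, 0 were called between TugelaDn1 and Tugela (0.00817% of all probe sets), 0 between TugelaDn2 and Tugela (0.0376%) and 0 between TugelaDn1 and TugelaDn2 (0.0736%). At an unadjusted p under 0.05, limma gave 9 members (11.1%) for TugelaDn1 against Tugela, with 7.23% over all probe sets, 11 (13.6%) for TugelaDn2 against Tugela, with 8.23%, and 6 (7.41%) for TugelaDn1 against TugelaDn2, with 9% over all. With only 5 to 45 calls among all 61179 probe sets, a count of 0 among 81 cannot be told apart from the background. These comparisons share samples, TugelaDn1, TugelaDn2 and Tugela each entering a pair of them.

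The median over the 81 members of the log2 difference was 0.11 for TugelaDn1 minus Tugela, 0.03 for TugelaDn2 minus Tugela and 0.02 for TugelaDn1 minus TugelaDn2, while the medians over all probe sets were 0.00, -0.01 and 0. The line medians over members were 6.34 in TugelaDn1, 6.58 in TugelaDn2 and 6.46 in Tugela, against 9.53 in TugelaDn5. The rule capped the values of the first 3 lines, so these medians follow in part from the choice. Single members spread widely around these medians, from -1.39 to 2.34 for TugelaDn1 minus Tugela, from -2.09 to 3.12 for TugelaDn2 minus Tugela and from -2.14 to 1.02 for TugelaDn1 minus TugelaDn2. The median standard error of such a difference was 0.444, and no difference in these ranges passed the test with 3 repeats a line.

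The members nearest to a call by their lowest adjusted p were Ta.26993.1.A1_at, TaAffx.39140.1.S1_at, TaAffx.13386.1.A1_at, Ta.3725.2.S1_at and TaAffx.28669.1.A1_at, of which the last is described at the margin above. They are named for these values. Ta.26993.1.A1_at read 5.57, 6.00 and 5.85 in TugelaDn2, against 7.46, 6.88 and 7.30 in Tugela, a difference of -1.41 (limma, adjusted p = 0.131). Its TugelaDn5 repeats were at 9.21, 8.59 and 8.99 and its TugelaDn1 repeats at 7.06, 6.39 and 6.85, so that TugelaDn2 was the darkest line, without overlap. TaAffx.39140.1.S1_at read 4.31, 4.82 and 4.22 in TugelaDn2, against 6.72, 6.77 and 6.14 in Tugela (-2.09, limma, adjusted p = 0.275), and 7.81, 8.38 and 8.64 in TugelaDn5. The order in these 2 members was TugelaDn5, Tugela and then TugelaDn2, with the TugelaDn1 repeats at 6.60, 4.18 and 5.11 in TaAffx.39140.1.S1_at overlapping neighbouring lines.

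In TaAffx.13386.1.A1_at and TaAffx.28669.1.A1_at the order was the other way round, with Tugela at the floor in all repeats. The difference of TugelaDn1 from Tugela was at least 2.34 in TaAffx.28669.1.A1_at (limma, adjusted p = 0.374). For TaAffx.13386.1.A1_at, whose values are given above, limma gave an adjusted p of 0.373 for TugelaDn1 and 0.312 for TugelaDn2, each against Tugela. Neither was called. In Ta.21340.1.S1_a_at the difference from Tugela was 1.75 in TugelaDn1 (adjusted p = 0.522) and 1.53 in TugelaDn2 (adjusted p = 0.455). Ta.3725.2.S1_at read 9.84, 10.11 and 9.82 in TugelaDn1, against 10.54, 10.48 and 10.31 in TugelaDn2, a difference of -0.52 (adjusted p = 0.359). None of these differences passed the test. The repeats did not overlap, but how often repeats of a pair of lines separate over all probe sets was not counted. No line difference is therefore read from this.

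The clusters of the members gave a further reading that the rule did not use, from probe sets of the same cluster that were not members. The 81 members came from 79 clusters. In 54 clusters the member was the only probe set, in 24 clusters there were other probe sets, here called companions, and TaAffx.128836 held its 2 members alone. The 24 clusters held 25 members and 80 companions, 37 of which belonged to Ta.7378. For the TugelaDn5 mean minus the mean of the other 3 lines, 16 companions (20%) were called higher and 2 (2.5%) lower with limma, while over all probe sets 0.992% were called higher and 1.57% lower. The remaining 62 were not called. The contrast is the one that chose the members and some companions can share probes with them, so nothing is read from these shares about the members themselves.

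Among companions with an _x_at, _a_at or _s_at identifier 12 of 38 (31.6%) were called higher, and among those with a plain identifier 4 of 42 (9.52%). By sign alone 61 companions were higher and 19 lower in TugelaDn5, with a median of 0.32 against 0.00 over all probe sets. All TugelaDn5 repeats lay above all 9 others in 22 companions (27.5%), against 2.74% over all probe sets. In 37 companions the mean of TugelaDn5 and that of the others were within 0.5 of each other. The number of companions called higher rested on the TugelaDn5 repeats: it was 7 without repeat 1 and 5 without repeat 2. Of the 18 called companions, 5 kept their call under every alternative tried. Those of the 5 that were called higher all had an _x_at or _a_at identifier. Every plain companion called higher lost its call in at least 1 alternative.

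**Figure D4:**
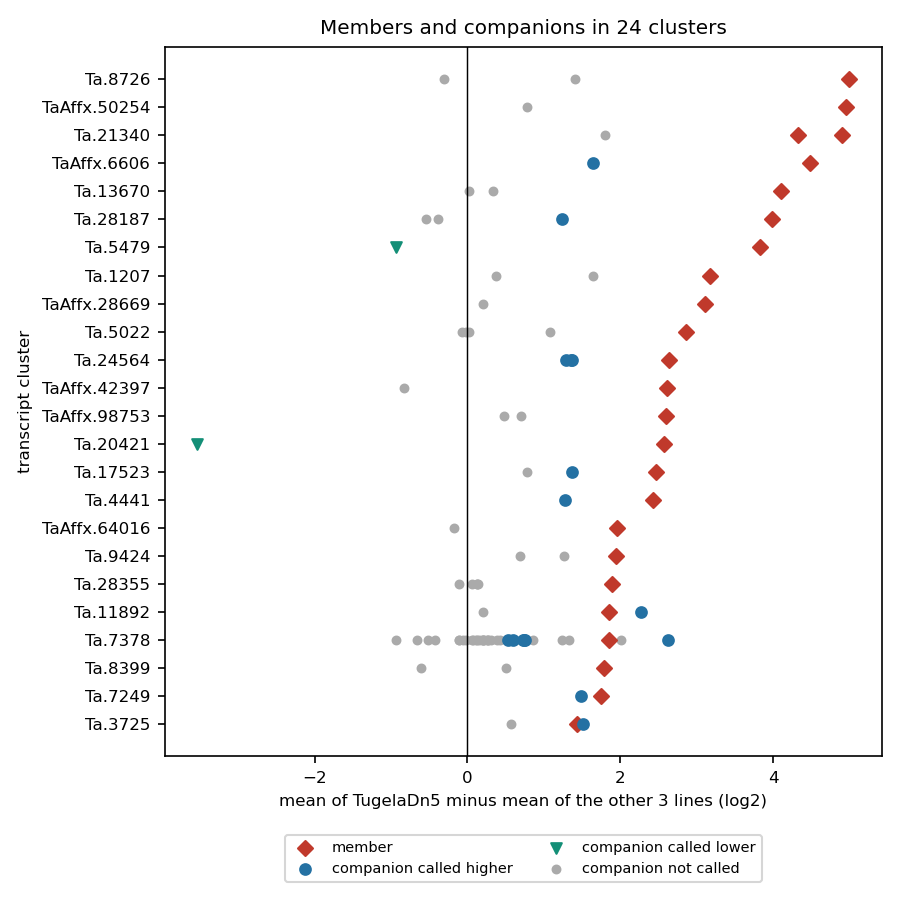
Mean of TugelaDn5 minus mean of the other 3 lines (log2) for members (red diamonds) and companions (blue circles called higher, green triangles called lower, grey circles not called) in the 24 clusters that held both, with the largest member difference of a cluster at the top. Most companions lie between 0 and their member, and the companions of Ta.20421 and Ta.5479 lie below 0.

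In Ta.20421 the companion changed against the member. The member Ta.20421.2.A1_at had 9.13, 8.83 and 9.41 in TugelaDn5, against 6.54, 7.20 and 5.35 in TugelaDn1, 6.33, 6.23 and 7.73 in TugelaDn2 and 7.12, 6.46 and 5.94 in Tugela. The companion Ta.20421.1.S1_at had 10.48, 9.98 and 10.92 in TugelaDn5, against 14.17, 14.21 and 13.85 in TugelaDn1, 14.06, 13.79 and 13.86 in TugelaDn2 and 14.02, 13.83 and 14.11 in Tugela. Its 9 other repeats thus lay within a narrow band, far above all TugelaDn5 repeats. The companion was 11.6-fold lower in TugelaDn5 (log2 -3.53, SE 0.188, limma, adjusted p = 9.03e-06), and the call held in all 22 alternatives. Neither probe set had an identifier that marks shared probes.

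Ta.5479 showed the same opposition at a smaller size. Its member Ta.5479.2.A1_at read 8.12, 8.24 and 9.16 in TugelaDn5 and between 4 and 6.18 in the other lines. The companion Ta.5479.1.A1_x_at read 6.94, 7.18 and 7.09 in TugelaDn5, against 8.10, 8.31 and 8.32 in TugelaDn1, 7.62, 8.11 and 7.56 in TugelaDn2 and 8.27, 7.79 and 7.91 in Tugela, and it fell by 0.93 (SE 0.156, adjusted p = 0.0134). This call was lost without TugelaDn5 repeat 1 and without TugelaDn5 repeat 3, with an adjusted p of up to 0.0768. In these 2 clusters probe sets of 1 cluster thus moved in opposite directions between TugelaDn5 and the other lines.

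In Ta.24564 all 4 probe sets were higher in TugelaDn5, by unequal amounts. This cluster and those that follow, other than Ta.8726, were chosen for description after the companions' values were seen. The member Ta.24564.2.A1_at had 9.59, 9.44 and 9.56 in TugelaDn5 and 6.09 to 7.33 in the other lines, a difference of 2.64. Its companions were 2.46-fold (Ta.24564.1.S1_a_at, limma, adjusted p = 0.000567), 2.55-fold (Ta.24564.1.S1_x_at, 0.00824) and 2.58-fold (Ta.24564.3.S1_x_at, 0.00977) higher in TugelaDn5. Ta.24564.1.S1_a_at itself lay just outside the margin of the members, at 10.99, 11.05 and 10.89 in TugelaDn5 and 9.42 to 9.94 elsewhere. Its call held in every alternative, while Ta.24564.1.S1_x_at lost the call without TugelaDn5 repeat 1 or repeat 2 (adjusted p up to 0.0521) and Ta.24564.3.S1_x_at without TugelaDn5 repeat 2 (0.0549).

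In Ta.3725 and Ta.28187 a probe set with shared probes moved with the member. Ta.3725.2.S1_at, a member at 11.65, 11.65 and 11.66 in TugelaDn5 and 9.82 to 10.58 elsewhere, had the companion Ta.3725.2.S1_x_at at 11.25, 11.28 and 11.17 in TugelaDn5 and 9.10 to 10.31 elsewhere (1.51 higher, limma, adjusted p = 0.00076). Ta.28187.2.S1_x_at, companion of the member Ta.28187.2.S1_at, was 1.24 higher (adjusted p = 0.00575). Both calls held in every alternative. The members differed by 1.43 and 3.99, so that the companion was close to its member in the one cluster and well below it in the other. The other companions of these clusters were not called.

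Bright companions moved with the member in some of the remaining clusters and stayed level in others. Ta.4441.1.A1_x_at had 10.11, 10.27 and 10.29 in TugelaDn5 and 8.47 to 9.46 elsewhere (1.28 higher, limma, adjusted p = 0.015), and Ta.7249.1.S1_x_at was 1.49 higher (adjusted p = 0.0151). Both calls were lost without any 1 of the TugelaDn5 repeats (adjusted p up to 0.0774 and 0.0792). Ta.13670.3.S1_at, a member at 8.48, 8.95 and 8.71 in TugelaDn5 and 4 to 5.75 elsewhere, had the companion Ta.13670.1.S1_at at 11.78, 11.81 and 11.74 in TugelaDn5 and 11.57 to 11.85 elsewhere, a difference of 0.02 (SE 0.102, limma, adjusted p = 0.967). The other companion of this cluster, Ta.13670.2.S1_at, differed by 0.34 (SE 0.215, adjusted p = 0.574). In Ta.28355 the member Ta.28355.1.S1_x_at had 10.91, 10.39 and 10.51 in TugelaDn5 and 8.28 to 9.34 elsewhere, whereas its 4 bright companions differed by only 0.06 to 0.14 and were not called. The member of Ta.5022, Ta.5022.1.A1_at, at 10.76, 10.55 and 10.58 in TugelaDn5 and 6.81 to 8.47 elsewhere, had 3 companions with differences of -0.08, -0.02 and 0.03. Another companion, Ta.5022.1.A1_x_at, differed by 1.08 (SE 0.246) and was not called (adjusted p = 0.0568). In Ta.8726 the companion Ta.8726.2.A1_at was lower by sign, at 8.42, 8.40 and 8.42 in TugelaDn5 and 8.49 to 9.10 elsewhere (-0.31, SE 0.137, adjusted p = 0.372). The other companion, Ta.8726.1.S1_s_at, was higher by sign, at 7.45, 7.30 and 8.15 in TugelaDn5 and 4 to 7.05 elsewhere (1.41, SE 0.504, adjusted p = 0.233), and neither was called.

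Ta.7378 was by far the cluster with most probe sets. Its member, Ta.7378.30.S1_x_at, had 9.12, 9.45 and 9.55 in TugelaDn5, against 7.28, 7.41 and 7.18 in TugelaDn1, 7.39, 7.43 and 7.65 in TugelaDn2 and 7.69, 7.88 and 7.79 in Tugela. Of its 37 companions 29 were higher by sign, with a median difference of 0.27, 6 were called higher and 0 lower. Ta.7378.28.S1_x_at differed by 2.63 (SE 0.456, adjusted p = 0.0158), more than the member at 1.85, but Tugela repeat 1 at 7.66 kept it out of the members, and its call was lost without any 1 of the TugelaDn5 repeats (adjusted p up to 0.0784). Ta.7378.12.S1_x_at rose by 0.73 (SE 0.112, adjusted p = 0.0083) and kept its call in every alternative. Outside this cluster 10 of 43 companions were called higher, with a median difference of 0.48.

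By identifier, the members differed in make-up from other bright probe sets, which is given as a description. TaAffx clusters supplied 32 members (39.5%), against 22.7% of the probe sets with a TugelaDn5 mean of 8 or more and 48.5% of all tested. Identifiers with A1, the mark of the opposite orientation to S1, made up 28 members (34.6%), against 19.2% of those bright probe sets and 17.4% of all. Plain identifiers were found in 74 members (91.4%), against 61.3% of the bright and 79.2% of all. Clusters with a single probe set supplied 54 members (66.7%), against 42.9% of the bright and 60.1% of all. The 231 probe sets dark in TugelaDn5 only had 29% TaAffx, 30.3% A1 and 74.5% plain identifiers, with 57.1% in clusters of a single probe set. The median gap was 1.51 in the 32 TaAffx members and 1.63 in the 49 Ta members, and 10 and 11 of these were dark in all other repeats.

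TugelaDn2 repeat 3 decided the gap more often than other repeats of its line. It was the highest of the 9 repeats in 18 members (22.2%), as was TugelaDn1 repeat 1, while over all probe sets these shares were 11.5% and 15.2%. TugelaDn2 repeats 1 and 2 were the highest in 3 and 5 members. In 8 members the highest other repeat lay at least 1 above the next, and in 6 of these it was TugelaDn2 repeat 3. Over the probe sets with a TugelaDn5 mean of 8 or more such a lone high repeat was found 125 times, and 57.6% of these were TugelaDn2 repeat 3, against 14.5% of 3667 over all probe sets. TugelaDn1 repeat 3 made up a further 21.6% of the 125, against 11.5% of the 3667.

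The 6 members, named for this pattern after it was seen, show a single repeat of TugelaDn2 between TugelaDn5 and the rest. Ta.7158.1.S1_at read 13.08, 13.20 and 13.30 in TugelaDn5, against 6.66, 4 and 6.37 in TugelaDn1, 7.02, 4.19 and 11.27 in TugelaDn2 and 5.11, 4.01 and 4 in Tugela. On the linear scale TugelaDn2 repeat 3 was at 26.4% of the TugelaDn5 level there. TaAffx.12907.1.A1_at had 11.31, 11.39 and 11.31 in TugelaDn5, against 5.29, 4 and 4 in TugelaDn1, 4, 4 and 9.35 in TugelaDn2 and 4, 4.19 and 4 in Tugela, so that repeat 3 of TugelaDn2 was at 25.2% of TugelaDn5 with both other repeats of its line at the floor. Ta.1767.1.A1_at, at 11.14, 11.07 and 11.25 in TugelaDn5, was at 9.18 (25.5%) in that repeat. Ta.6210.1.S1_at, with a gap of 4.06 among the 7 largest, had 12.60, 12.55 and 12.62 in TugelaDn5 and 8.49 (5.84%) in TugelaDn2 repeat 3, with 4 to 5.76 in the other 8 repeats. TaAffx.6606.1.S1_at and TaAffx.28007.1.S1_at were at 15.6% and 36.7%.

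**Figure D5:**
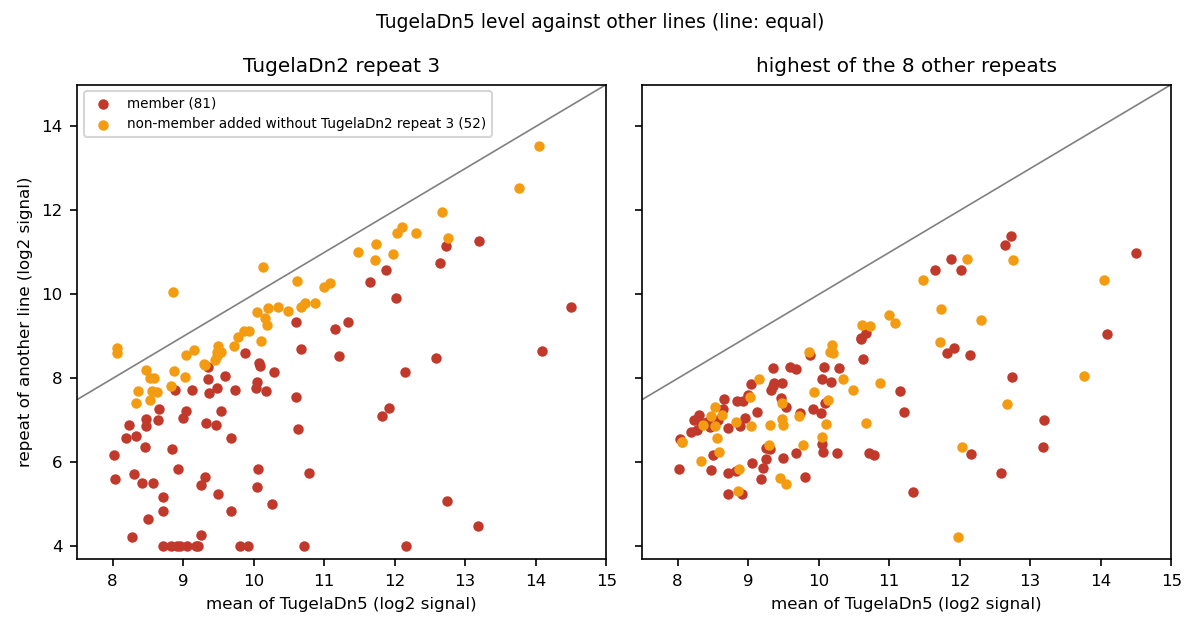
Log2 signal of TugelaDn2 repeat 3 (left) and of the highest of the other 8 repeats outside TugelaDn5 (right) against the TugelaDn5 mean, for the 81 members (red) and for the 52 probe sets that met the rule only without TugelaDn2 repeat 3 (orange), with a line of equality. The 52 lie near the line on the left by the way they were chosen, at a median of 57.3% of the TugelaDn5 level, and among the members on the right.

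Leaving out TugelaDn2 repeat 3 raised the number of probe sets that met the rule to 133, the 81 members and 52 more. Leaving out any other 1 of the 9 repeats added between 0 and 11. In the 52 added probe sets the signal of TugelaDn2 repeat 3 was between 37.9% and 231% of the TugelaDn5 level on the linear scale, with a median of 57.3%, and 48 of them lay between 37% and 83%. In the 81 members it was between 0.243% and 47.3%, with a median of 16.9%, and in the 21 members that were dark elsewhere the median was 3.33%. Of the 31 probe sets, among the 133, in which the 8 other repeats were all below the lowest array median, TugelaDn2 repeat 3 was under 10% of TugelaDn5 in 21, at 10% to 37% in 3 and above 37% in 7. The 52 failed the rule only through this repeat, so its higher share in them than in the members follows from the choice. The cuts at 10%, 37% and 83% were not part of the rule and only describe these values. In the opposite direction, 27 more probe sets were dark in TugelaDn5 only once this repeat was left out, 258 in all. That count was 252 without TugelaDn1 repeat 3 and 261 without TugelaDn5 repeat 3. TugelaDn2 repeat 3 thus stood out less in this direction. The count of 81 is thus the smaller of the 2 readings, and the members do not include the 52 probe sets in which this repeat lay within the margin or above TugelaDn5. The source of the signal in TugelaDn2 repeat 3 was not tested.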

How the data were processed

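Total RNA from infested leaves was labelled as biotinylated cRNA and hybridised to single-colour Affymetrix wheat arrays. The authors deposited linear intensities per probe set, scaled to a common trimmed mean (500.1, with 2% of the values trimmed from either end). The summarising software is not given in the sources used here. From 61290 probe sets, 111 controls were removed. Intensities were floored at 16 and log2 was taken, and the arrays of TugelaDn5 repeat 3 were averaged. Where a sample's free-text description named another line than its title and genotype, as for TugelaDn2 and TugelaDn5, the title was followed. limma 3.58.1 in R 4.3.3 was run with all 4 lines in 1 fit (8 residual and 1.45 prior degrees of freedom), with Benjamini-Hochberg adjustment within a comparison, after the script had been tested on simulated data. All adjusted p-values come from this fit.

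The p-values measure the spread between the 3 repeats of a line, called biological by the labels. Gene names came from the annotation table of the array and RefSeq, and no sequences of probes were used here. Named were members with the 15 largest gaps, members sharing a cluster, members with a companion called lower, the 3 on either side of the margin, and any paired with a gene or called between other lines (0 each). Other members are named as chosen after their values were seen. The members and lists were chosen with earlier results of these data known. Alternatives were other floors, quantile normalization, a filter on dim probe sets, single arrays of repeat 3, other margins and levels, left-out repeats, other moderation and repeat number as a block.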

Additional observations from a re-analysis of the deposited data

How the results depend on the processing

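The number of members depended on the rule's own thresholds: 203 probe sets with a margin of 0.5, 44 with 1.5, 31 with 2, and 33 with a TugelaDn5 mean of 10 or more. Leaving out each repeat in turn gave 81 to 133, with 133 without TugelaDn2 repeat 3. All other alternatives gave 56 to 103. For the other lines together, the count of 12 became 34, 6 and 1 at margins of 0.5, 1.5 and 2, and 4 at a mean of 10 or more, and was 12 to 23 with a repeat left out (23 without TugelaDn1 repeat 2, 19 without TugelaDn1 repeat 3 or TugelaDn2 repeat 3). No member was called among the other 3 lines in any of the 22 alternatives of each comparison. Companions called higher numbered 4 with plain identifiers only and 5 to 18 with a repeat left out. Companions called lower numbered 1 with plain identifiers only and 1 to 2 with a repeat left out (1 without TugelaDn5 repeat 1 or repeat 3). The cause was not tested, except that plain identifiers leave fewer companions. Over all 81 members, 1444 of 1521 alternatives moved the difference by less than 1 SD and 0 turned its sign. Of the 77 that moved it more, 69 came with floors above 16. Ta.17523.1.S1_at was called higher but lost the call in 18 of 21 alternatives.

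Repeat numbers gave no visible pairing: same-numbered repeats of different lines had correlations of -0.11 to 0.14, with 2 of 18 over 0.1. The 36 pairs with other numbers had correlations of -0.14 to 0.16. Such values do not settle whether same-numbered repeats were grown or processed together, which the labels do not say. With repeat number as a replicate block, 12 companions were called higher as a fixed term and 15 as a random term, 2 were called lower in both, and 0 members were called among the other lines.

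Precision was limited by 3 repeats a line and by values near the floor, where differences are lower bounds. Without uninfested plants, gene names or probe sequences, the data do not show when, where or from which gene copy a signal arose.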
